A study of Mus musculus with 12 samples.

Results

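The NAIP-NLRC4 inflammasome genes and their partners were followed through mouse blood stem and progenitor cells of 3 Tet2 genotypes. The genes were Naip1, Naip2, Naip5, Naip6, Nlrc4, Nlrp3, Pycard and Casp1, taken by symbol as 8 of the 24538 genes in the deposited count tables. All 8 were present, and 7 passed the filter on low counts in every comparison, Naip1 being the exception. The set was chosen by the low Naip5 counts of the MPP libraries labelled knockout against WT and Mut, so the MPP knockout values are given below as a description with no test.

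RNA was sequenced from LSK cells, the lineage-negative, Sca-1-positive, Kit-positive marrow fraction that holds the blood stem cells, and from cells the labels call MPP (multipotent progenitors) in one field and Lin in another. The mice were wild type (WT), Tet2 knockout (KO) or Tet2 mutant (Mut), all of a mixed 129/C57/B6 strain and 10 weeks old. The study asks what Tet2, a dioxygenase of methylated cytosine, does apart from catalysis. Marrow of 2 mice was pooled per genotype and gave 2 technical replicate libraries per population, so 12 libraries form 6 groups of 2. The RNA was amplified before library preparation, and ERCC spike-ins, synthetic RNAs of known amount, were included. The knockout allele, the residues altered in Mut and the MPP gates are not given in the sources used here. Every p-value and SD below measures the spread between technical libraries of a single pool and not between mice, and the LSK and MPP cells of a genotype came from the same pool.

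NAIP proteins are cytosolic receptors of bacterial parts. Naip5 and Naip6 bind flagellin, Naip1 binds the needle protein and Naip2 the rod protein of type III secretion systems. A bound NAIP recruits Nlrc4, which activates caspase-1, the product of Casp1, directly or through the adaptor ASC, the product of Pycard. Nlrp3 senses membrane damage and many other signals and needs Pycard to reach caspase-1. Caspase-1 then cleaves the cytokines interleukin-1 beta and interleukin-18 and the pore former gasdermin D. The pathway is best known in macrophages and neutrophils.

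In GENCODE release M21 (GRCm38, the mm10 build the reads were mapped to) the 4 Naip genes lie in a cluster on the minus strand of chromosome 13, over 308.807 kb. The pseudogene Naip3-ps1 lies between Naip5 and Naip6, and the pseudogene Naip3 between Naip6 and Naip1. Naip2 spans chr13:100144063-100202092, Naip5 chr13:100211739-100246323, Naip6 chr13:100281121-100317674 and Naip1 chr13:100407764-100452869. Nlrc4 lies at chr17:74425438-74459142, Nlrp3 at chr11:59541568-59566956, Pycard at chr7:127989708-127993867 and Casp1 at chr9:5298517-5307265. All 8 are annotated as protein coding, and the counts are sums over each gene.

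The Naip genes are close paralogues, which matters for every value below. The coding sequences of Naip5 and Naip6 were 97.0% identical, those of Naip1 and Naip5 91.9% and those of Naip2 and Naip5 89.99%. Coding bases 301 to 390, counted from the A of the start codon, are printed to show how few bases tell the genes apart over a stretch shorter than a read. Capitals mark bases that differ from Naip5, which were 3 in Naip6, 11 in Naip2 and 4 in Naip1.

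Naip5: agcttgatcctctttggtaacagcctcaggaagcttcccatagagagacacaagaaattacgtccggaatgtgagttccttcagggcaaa
Naip6: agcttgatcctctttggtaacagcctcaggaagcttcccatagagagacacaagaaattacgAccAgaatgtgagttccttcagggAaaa
Naip2: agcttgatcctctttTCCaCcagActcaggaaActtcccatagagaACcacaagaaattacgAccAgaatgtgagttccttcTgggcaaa
Naip1: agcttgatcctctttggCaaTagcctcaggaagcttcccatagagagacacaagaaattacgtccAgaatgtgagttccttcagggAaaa

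Of all windows of 50 bases in the Naip5 transcript, 32.3% occurred unchanged in a transcript of Naip1, Naip2 or Naip6. The share was 10.9% for windows of 100 bases and 3.15% for windows of 150 bases, the length of a read. Other Naip copies and pseudogenes were not searched. How the authors counted reads that map to several genes is not given in the sources used here. Hba-a1 and Hba-a2, a pair of alpha-globin genes with near-identical transcripts, were listed at 0 counts in all 12 libraries. Reads of such copies could be split or lost, so the division of counts among Naip1, Naip2, Naip5 and Naip6 is uncertain, and their sum is given as well. A row named Naip7, outside the set and the sum, was at 0 in both libraries of LSK Mut and of MPP Mut. It was not at 0 in both libraries of any WT or KO group. The cluster is also known to differ in gene content between inbred strains. The haplotype carried by each pool was not tested.

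Each library held between 9181027 and 23532847 gene counts. A gene at 0 could thus lie at up to 0.135 to 0.317 CPM (counts scaled to library size) at a floor of 3 counts, which covers counting error only. The LSK WT pair stood apart from the other pairs. Of genes averaging 50 to 1000 counts, 17.4% differed at least 4-fold between its 2 libraries, against 2.07% to 6.69% in the other groups. Tet2 itself lay at 62.7 to 87.3 CPM in LSK WT, 29.2 to 31.7 in LSK KO and 43.4 to 44.4 in LSK Mut. It was not lower in the libraries labelled MPP KO, at 34.9 CPM in each against 29.4 to 39.6 in MPP WT and 37.4 to 40.2 in MPP Mut. The gene sum does not show whether a deleted exon was read, so MPP KO below means the libraries labelled so. Summed Ly6a and Kit, which mark the LSK gate, lay at 615 to 732 CPM in LSK and 187 to 292 CPM in MPP.

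Naip5 was the most abundant Naip gene in LSK WT and was low in the KO libraries of both populations. In LSK WT its counts were 841 and 1132 (88.8 and 90.2 CPM). In LSK KO they were 51 and 0 (2.82 and 0 CPM), the 0 allowing up to 0.215 CPM, and in LSK Mut 417 and 354 (23.3 and 19.1 CPM). The 3 LSK genotypes did not overlap, and KO was lowest.

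Naip5 counts in MPP WT were 231 and 140 (15.4 and 14.0 CPM), in MPP KO 21 and 28 (1.55 and 2.18 CPM), and in MPP Mut 585 and 342 (26.3 and 22.5 CPM). Here too the genotypes did not overlap, with KO lowest and Mut highest. By mean CPM the 6 groups ran LSK WT (89.5 ± 1.05), MPP Mut (24.4 ± 2.69), LSK Mut (21.2 ± 2.99), MPP WT (14.7 ± 0.974), MPP KO (1.86 ± 0.452) and LSK KO (1.41 ± 1.99; SD, n = 2 each). The libraries of MPP Mut and LSK Mut overlapped, as did those of MPP KO and LSK KO. The other neighbours in that order did not overlap.

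**Figure D1:**
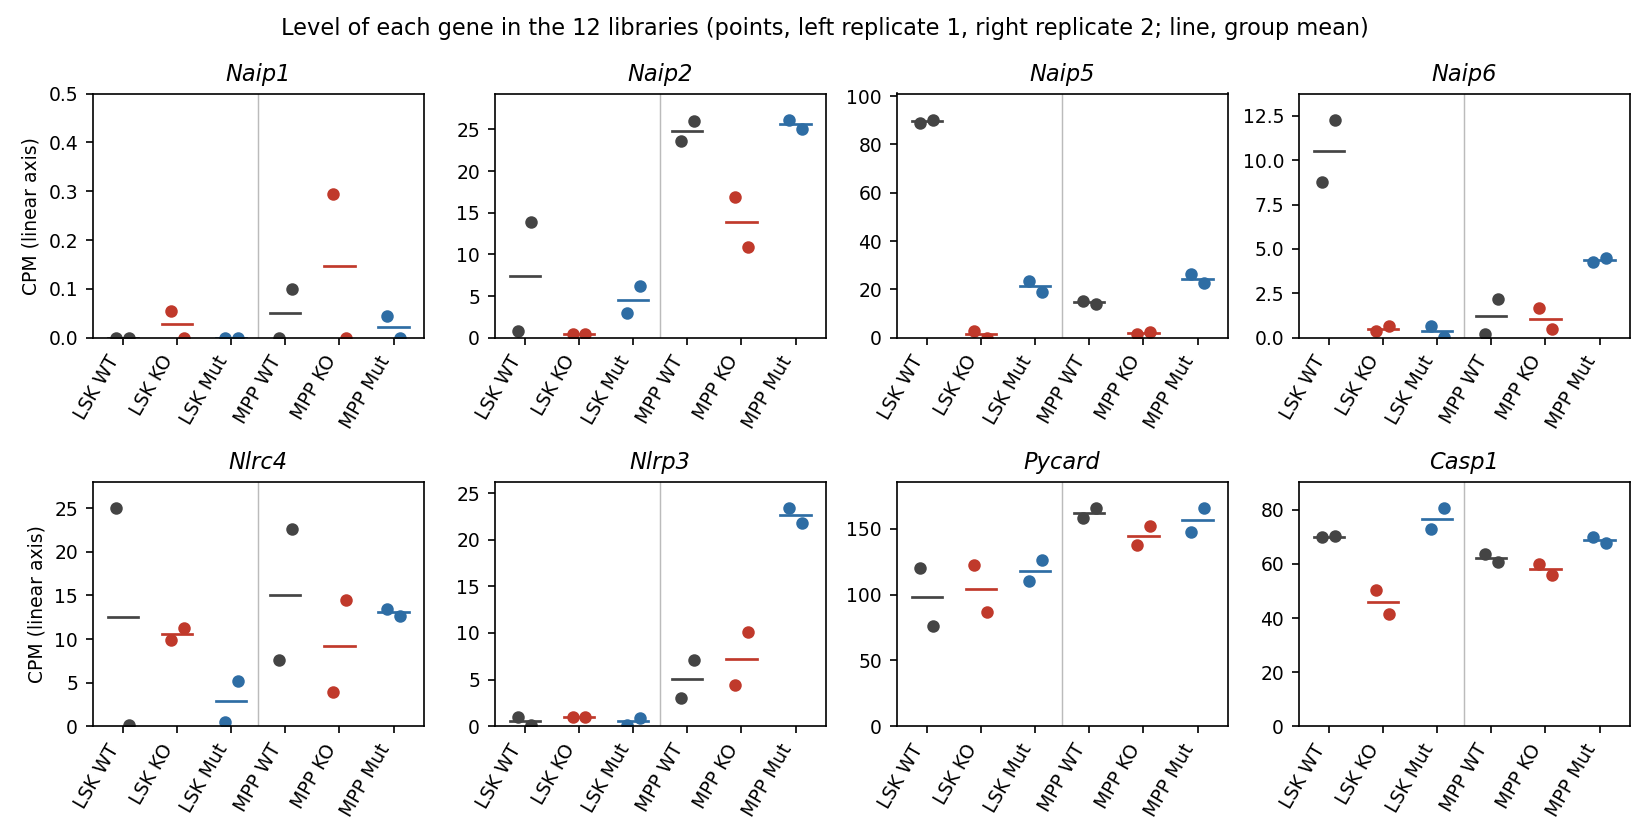
CPM of the 8 genes (y axis, linear, a scale per gene) in the 6 groups (x axis); points are the 2 technical libraries, lines the group means. Naip5 lies between 0 and 2.82 CPM in the 4 KO libraries and between 14.0 and 90.2 CPM in the other 8, while Nlrc4 in LSK WT spans 0.159 to 25.01 CPM.

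The fitted log2 difference of Naip5 in LSK KO against WT was -5.96 (SE 1.25), a 62.3-fold lower level. By edgeR's quasi-likelihood test with Benjamini-Hochberg adjustment over 13170 genes its adjusted p was 0.194, so it was not called at 0.05. None of the 7 members tested was called there, where 0.0456% of genes were, and 4 members had an unadjusted p under 0.05 (13.8% of genes). DESeq2 called 2 members among 692 genes in all, where edgeR called 6 genes. The adjusted p of Naip5 depended on the setting, from 0.000353 with spike-in scaling to 0.496 without LSK Mut replicate 2. It was 0.0162 with no filter on low counts, 0.0397 by DESeq2, 0.00696 without LSK WT replicate 1 and 0.00621 without LSK WT replicate 2. The difference was -5.01 without LSK KO replicate 2, the library at 0, and -13.35 without LSK KO replicate 1, a value fitted to the lone library at 0 that sets no bound.

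Cell markers also differed between the LSK groups. The sum of 10 granulocyte-monocyte progenitor markers was 2652 to 3133 CPM in LSK WT, 5554 to 5888 in LSK KO and 6657 to 6963 in LSK Mut, and that of 10 stem cell markers 698 to 929, 604 to 647 and 571 to 721 CPM. Their part in the Naip5 values was not tested.

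LSK Mut against WT shares its WT libraries with the comparison above. There Naip5 differed by -2.09 (SE 1.03, edgeR Benjamini-Hochberg adjusted p = 0.321), and no member was called, where 1.28% of genes were. At an unadjusted p under 0.05 there was 1 member (19.1% of genes), and DESeq2 called 1 among 1526 genes in all. Naip5 in LSK KO against Mut differed by -3.87 (SE 1.15, edgeR Benjamini-Hochberg adjusted p = 0.911), and again no member was called, where 0.0607% of genes were. At an unadjusted p under 0.05 there were 2 members (4.24% of genes), and DESeq2 called 0 among 116 genes in all. With spike-in scaling that difference was -4.48 with an edgeR adjusted p of 0.0141.

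In MPP, where the set was chosen, Naip5 differed by -2.98 (SE 0.434) in KO against WT and by -3.71 (SE 0.444) in KO against Mut. It was the 1 member called in each, where 0.363% and 0.239% of genes were called, and nothing is read from that count. The call against WT was lost in all 6 fits that left out a library. Erythroid markers were higher in the same libraries. Of the 12 listed, the globin genes Hba-a1, Hba-a2, Hbb-bs and Hbb-bt were at 0 in every MPP library. The marker sums were 3121 to 3497 CPM in MPP WT, 5378 to 5403 in MPP KO and 4173 to 4385 in MPP Mut. Their part in the Naip5 values was not tested. MPP Mut against WT gave Naip5 a difference of 0.73 (SE 0.392, edgeR Benjamini-Hochberg adjusted p = 0.611), with both Mut libraries above both WT libraries. No member was called there, where 0.224% of genes were. At an unadjusted p under 0.05 there was 1 member (9.75% of genes), and DESeq2 called 1 among 313 genes in all.

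A description made after the values were seen places Naip5 among all genes. Its MPP part reuses the values that chose Naip5, so the share below does not measure how rare the Naip5 pattern is. The KO libraries lay under 1/4 of every WT and Mut library, in LSK and in MPP, for 3 of 12302 genes (0.0244%): Naip5, Jchain and G530011O06Rik. Jchain, the joining chain of secreted antibodies, lay at 8.83 to 12.3 CPM in KO libraries and 75.1 to 234 CPM elsewhere. G530011O06Rik had 0 counts in the KO libraries and between 1 and 60 elsewhere. At the floor of 3 counts its MPP KO libraries could lie at 0.221 and 0.234 CPM, above an MPP WT library at 0.100 CPM, so its place among the 3 is not settled at this depth.

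Naip2, the rod protein receptor, had in WT its higher CPM in MPP, where Naip5 had its lower. Its counts in MPP WT were 354 and 260 (23.6 and 26.0 CPM), in MPP KO 230 and 140 (16.9 and 10.9 CPM), and in MPP Mut 582 and 381 (26.2 and 25.1 CPM). Both KO libraries lay below the other 4, and WT and Mut overlapped. In LSK its counts were 8 and 174 in WT (0.844 and 13.9 CPM), 9 and 6 in KO (0.497 and 0.431 CPM), and 52 and 116 in Mut (2.91 and 6.27 CPM).

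The fitted difference of Naip2 was -3.99 (SE 1.52, edgeR Benjamini-Hochberg adjusted p = 0.325) in LSK KO against WT and rested on LSK WT replicate 2. Without that library it was -0.86 (edgeR adjusted p = 0.723), and without LSK WT replicate 1 it was -4.90 (edgeR adjusted p = 0.0124). In MPP, as a description, KO differed from WT by -0.84 (SE 0.343) and from Mut by -0.88 (SE 0.342). Mut against WT differed by 0.05 (SE 0.338, edgeR Benjamini-Hochberg adjusted p = 0.988), which turned to -0.54 with spike-in scaling.

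Naip6, the other flagellin receptor, was highest in LSK WT, at 83 and 154 counts (8.76 and 12.3 CPM). In LSK KO it had 7 and 9 counts (0.387 and 0.646 CPM) and in LSK Mut 12 and 1 (0.672 and 0.0540 CPM). Its difference in LSK was -4.35 (SE 1.43, edgeR Benjamini-Hochberg adjusted p = 0.285) for KO against WT and -4.85 (SE 1.47, edgeR Benjamini-Hochberg adjusted p = 0.152) for Mut against WT. DESeq2 gave adjusted p-values of 0.0235 and 0.00459 for the same 2 differences, and edgeR without LSK WT replicate 1 gave 0.0744 and 0.0429. Over all alternatives they ran up to 0.917 and 0.505, each without a KO or Mut library of LSK.

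In MPP, Naip6 had 3 and 22 counts in WT, 23 and 6 in KO, and 95 and 68 in Mut (4.27 and 4.47 CPM). Both MPP Mut libraries lay above the other 4. The fitted difference for MPP Mut against WT was 1.88 (SE 1.43, edgeR Benjamini-Hochberg adjusted p = 0.745). Naip1 had between 0 and 4 counts in each library and was not tested. It was at 0 in both LSK WT and both LSK Mut libraries.

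Read together, the Naip genes had 98.4 and 116 CPM in LSK WT, 3.76 and 1.08 in LSK KO, and 26.9 and 25.4 in LSK Mut. In MPP they had 39.2 and 42.3 CPM in WT, 20.5 and 13.6 in KO, and 56.8 and 52.0 in Mut. Summing the 4 genes before the fit, a choice made after seeing the data, removes the question of how counted reads were divided among them, though not that of reads left uncounted. The sum differed by -5.47 (SE 0.607, edgeR Benjamini-Hochberg adjusted p = 0.0580) in LSK KO against WT and by -2.06 (SE 0.513, edgeR Benjamini-Hochberg adjusted p = 0.101) in LSK Mut against WT. Without LSK WT replicate 1 the KO and Mut differences of the sum were -5.58 and -2.17. Without LSK WT replicate 2 they were -5.32 and -1.91. These fits leave a lone LSK WT library, and the sum was not refitted without a KO or Mut library. In MPP the sum differed by -1.25 (SE 0.289) in KO against WT, as a description, and by 0.42 (SE 0.282, edgeR Benjamini-Hochberg adjusted p = 0.697) in Mut against WT.

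The makeup of the Naip counts is given as shares, with no test. Naip5 took 77.5% and 90.2% of them in the 2 LSK WT libraries and 75.2% and 86.7% in LSK Mut. It took 33.1% and 39.3% in MPP WT, 43.2% and 46.3% in MPP Mut, and 7.55% and 16.1% in MPP KO. Naip2 took 60.2% to 61.5% in MPP WT and 80.5% to 82.7% in MPP KO. Shares in LSK KO rest on 68 and 15 counts and are not compared.

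**Figure D2:**
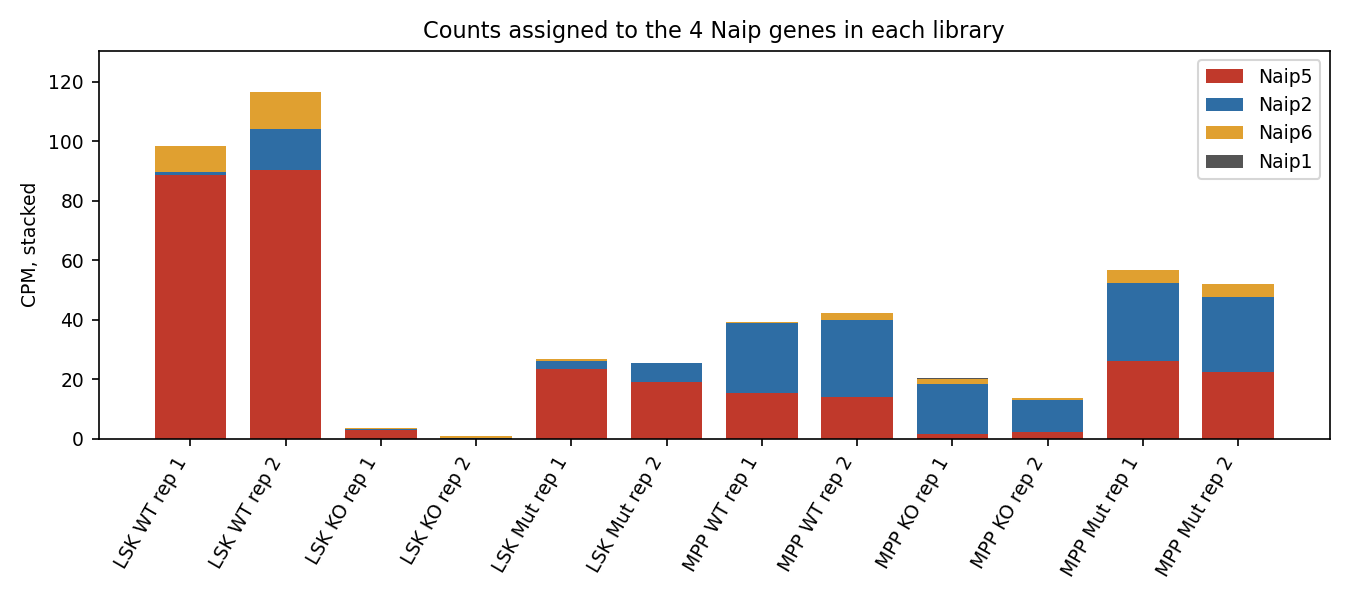
Stacked CPM of the 4 Naip genes (y axis, linear) in each of the 12 libraries (x axis). Naip5 makes up most of the bar in LSK WT and LSK Mut, Naip2 most of it in MPP WT and MPP KO, and the LSK KO totals are 3.76 and 1.08 CPM.

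The genes beside the cluster served as a comparison for the locus, 14 of 16 listed neighbours being tested. None was called in the 6 genotype comparisons, where 0.0456% to 1.28% of all genes were. Smn1, the gene of spinal muscular atrophy just below Naip2, differed by 0.24 (SE 0.325) in LSK KO against WT and by -0.28 (SE 0.198) in MPP KO against WT. Gtf2h2, a subunit of transcription factor TFIIH just above Naip1, differed by 0.46 (SE 0.316) and 0.38 (SE 0.254). The median over the 14 was 0.06 in LSK KO against WT and 0.28 in MPP KO against WT, beside 0.00 and -0.01 over all genes tested. In edgeR fits 2 of the 14 had an unadjusted p under 0.05 in LSK KO against WT (13.8% of all genes) and 1 in MPP KO against WT (8.47% of all genes). There were 3 in LSK Mut against WT (19.1%), 2 in LSK KO against Mut (4.24%) and 1 in MPP Mut against WT (9.75%). MPP KO against Mut held 0, where 1228 of 12947 genes were under 0.05.

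Promoter windows of RefSeq (GRCm38.p6), each from 250 bases before to 50 after a start, were found for all 8 genes. Those of Naip2 and Naip5 aligned over 134 bases at 91.8% identity, while no other pair of Naip windows aligned over more than 22 bases. The 110 bases just before the start are printed for that pair, since it is the long shared stretch among the 4. Capitals mark the letters AGGAAGTG, of the type bound by ETS factors, here on the opposite strand. The letters were chosen after the windows were read. The stretch of Naip2 is chr13:100202123-100202232 and that of Naip5 chr13:100247337-100247446, both on the minus strand, and both lie before the GENCODE gene span.

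Naip2: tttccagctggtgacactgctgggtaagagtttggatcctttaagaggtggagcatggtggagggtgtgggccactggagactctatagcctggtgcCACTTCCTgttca
Naip5: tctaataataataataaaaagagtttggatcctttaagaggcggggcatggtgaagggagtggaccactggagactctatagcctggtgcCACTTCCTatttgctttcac

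AGGAAGTG occurred on either strand in the windows of 4 of the 8 genes (Naip2, Naip5, Nlrc4 and Pycard) and in 4.07% of all 32851 windows. The letters GGGNNTTCC, of the NF-kB type, occurred for Nlrp3 alone (5.82% of all windows). AGATAAG, of the GATA type, occurred for none of the 8 (3.04% of all windows), nor did an IRF-type motif, a pair of TTTC with 2 bases of any kind between them (3.44% of all windows). These are matches of letters in a window and show no binding.

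Nlrc4, the shared partner of the NAIPs, was uneven between replicate libraries. Its counts were 237 and 2 in LSK WT (25.01 and 0.159 CPM), 180 and 157 in LSK KO (9.94 and 11.3 CPM), and 9 and 96 in LSK Mut (0.504 and 5.19 CPM). In MPP they were 114 and 226 in WT, 54 and 186 in KO, and 300 and 193 in Mut, or 3.97 to 22.6 CPM. In LSK both KO libraries lay above both Mut libraries, and WT overlapped both. In MPP all 3 genotypes overlapped. LSK KO against Mut differed by 1.89 (SE 1.77, edgeR Benjamini-Hochberg adjusted p of 1). The LSK WT libraries, of the same pool, differed 85.7-fold for Nlrc4 and 14.3-fold for Naip2 on the log2 CPM scale with a prior count of 2, but by 1.02-fold for Naip5 and 1.01-fold for Casp1.

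The fitted difference of Nlrc4 in LSK KO against WT was -0.26 (SE 1.71, edgeR Benjamini-Hochberg adjusted p = 0.965). It was 5.97 without LSK WT replicate 1 and -1.25 without LSK WT replicate 2, so a single library set its sign. In LSK Mut against WT it was -2.15 (SE 1.79, edgeR Benjamini-Hochberg adjusted p = 0.558), and without LSK WT replicate 1 it was 4.07.

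**Figure D3:**
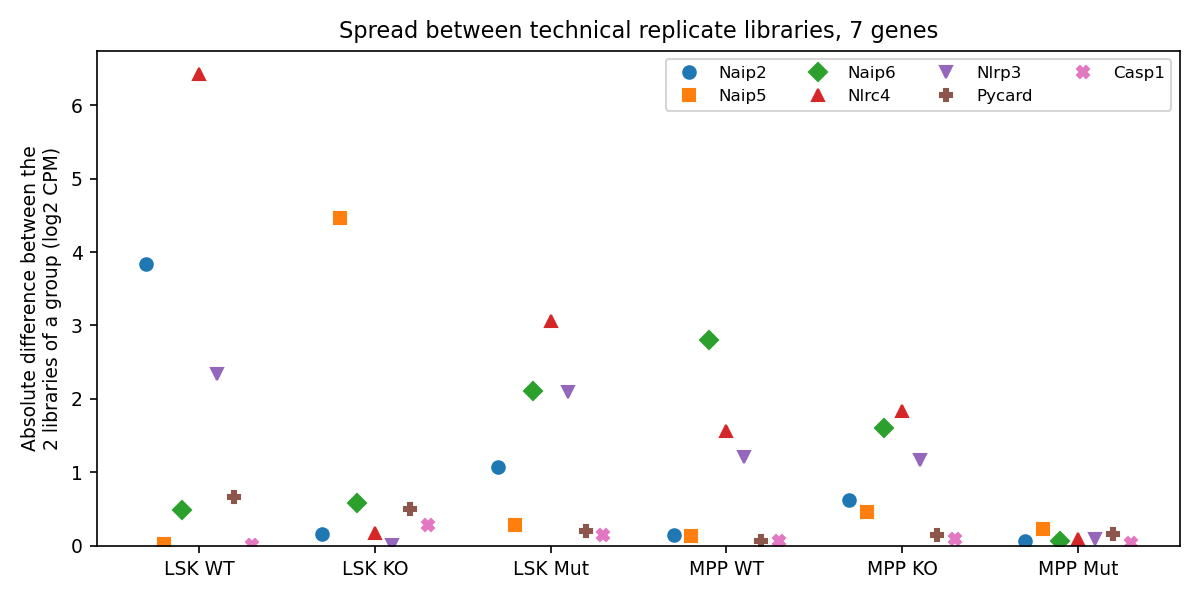
Absolute log2 CPM difference between the 2 technical libraries of each group (y axis, prior count 2) for the 7 genes tested, by group (x axis). Nlrc4 and Naip2 in LSK WT and Naip5 in LSK KO, with a library at 0, stand highest, while Casp1 and Pycard lie at 0.66 or below in every group.

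Nlrp3, the sensor outside the NAIP branch, was low in LSK and highest in MPP Mut. In LSK it had 9 and 1 counts in WT, 18 and 14 in KO, and 2 and 17 in Mut, at most 1.01 CPM. In MPP it had 45 and 71 counts in WT (2.997 and 7.11 CPM), 60 and 129 in KO (4.42 and 10.1 CPM), and 520 and 332 in Mut (23.4 and 21.8 CPM). Both MPP Mut libraries lay above the other 4, and WT and KO overlapped.

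Nlrp3 in MPP Mut against WT differed by 2.17 (SE 0.607), a 4.50-fold higher level, with an adjusted p of 0.309 by edgeR with Benjamini-Hochberg adjustment. It was not called, and over its alternatives the adjusted p ran from 0.0436 by DESeq2 to 0.649 without MPP WT replicate 1. In MPP, Nlrp3 in KO against Mut differed by -1.64 (SE 0.593), as a description. Higher in Mut than in WT without overlap were 4 of the 7 members tested, Naip5, Naip6, Nlrp3 and Casp1, where 19.8% of all genes were so placed, and 0 were lower (19.4%). Markers of cells known for Nlrp3 are given beside it. The sum of 14 monocyte and macrophage markers was 3168 to 3198 CPM in MPP WT, 2615 to 2714 in MPP KO and 2596 to 2722 in MPP Mut. The sum of 12 neutrophil markers was 2324 to 2435, 2557 to 2567 and 1310 to 1324 CPM in the same order. Gene by gene, 5 of 11 monocyte and macrophage markers tested were lower in MPP KO than in WT, and 5 in MPP Mut. The medians over the 11 were 0.06 and 0.07. Of 12 neutrophil markers, 5 were lower in MPP KO than in WT and 9 in MPP Mut, with medians of 0.07 and -0.44. The part of these markers in the Nlrp3 values was not tested. In bulk samples, fewer cells of a type and less RNA per cell cannot be told apart.

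Pycard, the ASC adaptor, was with Casp1 the most abundant member per kilobase of exon in LSK WT and MPP WT. Its libraries lay at 120 and 75.9 CPM in LSK WT, 122 and 86.4 in LSK KO, and 110 and 126 in LSK Mut. In MPP they lay at 158 and 166 CPM in WT, 137 and 152 in KO, and 148 and 166 in Mut. The 3 genotypes overlapped in LSK. Its fitted genotype differences ran from -0.18 to 0.26 over the 6 comparisons.

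Casp1, the effector protease, lay at 69.8 and 70.2 CPM in LSK WT, 50.4 and 41.5 in LSK KO, and 73.0 and 80.6 in LSK Mut. In MPP it lay at 63.5 and 60.8 CPM in WT, 59.98 and 56.1 in KO, and 69.8 and 67.8 in Mut. The order KO, WT, Mut held in both populations with no overlap in either, though with spike-in scaling MPP Mut against WT turned to -0.44 and MPP KO against Mut to 0.40. The differences were small. In LSK, KO against WT was -0.63 (SE 0.256, edgeR Benjamini-Hochberg adjusted p = 0.349) and KO against Mut was -0.74 (SE 0.256, edgeR Benjamini-Hochberg adjusted p of 1). In MPP, KO against WT was -0.10 (SE 0.195), as a description.

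Per kilobase of annotated exon, Casp1 and Pycard stood above the sensors. In LSK WT the levels were 46.8 CPM per kb for Casp1, 25.8 for Pycard, 17.2 for Naip5, 2.62 for Nlrc4, 1.54 for Naip6, 1.52 for Naip2 and 0.127 for Nlrp3. In MPP WT they were 42.6 for Pycard, 41.5 for Casp1, 5.12 for Naip2, 3.14 for Nlrc4, 2.82 for Naip5, 1.25 for Nlrp3 and 0.176 for Naip6. The SD in LSK WT was 3.66 CPM per kb for Nlrc4 and 1.90 for Naip2, above their means.

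**Figure D4:**
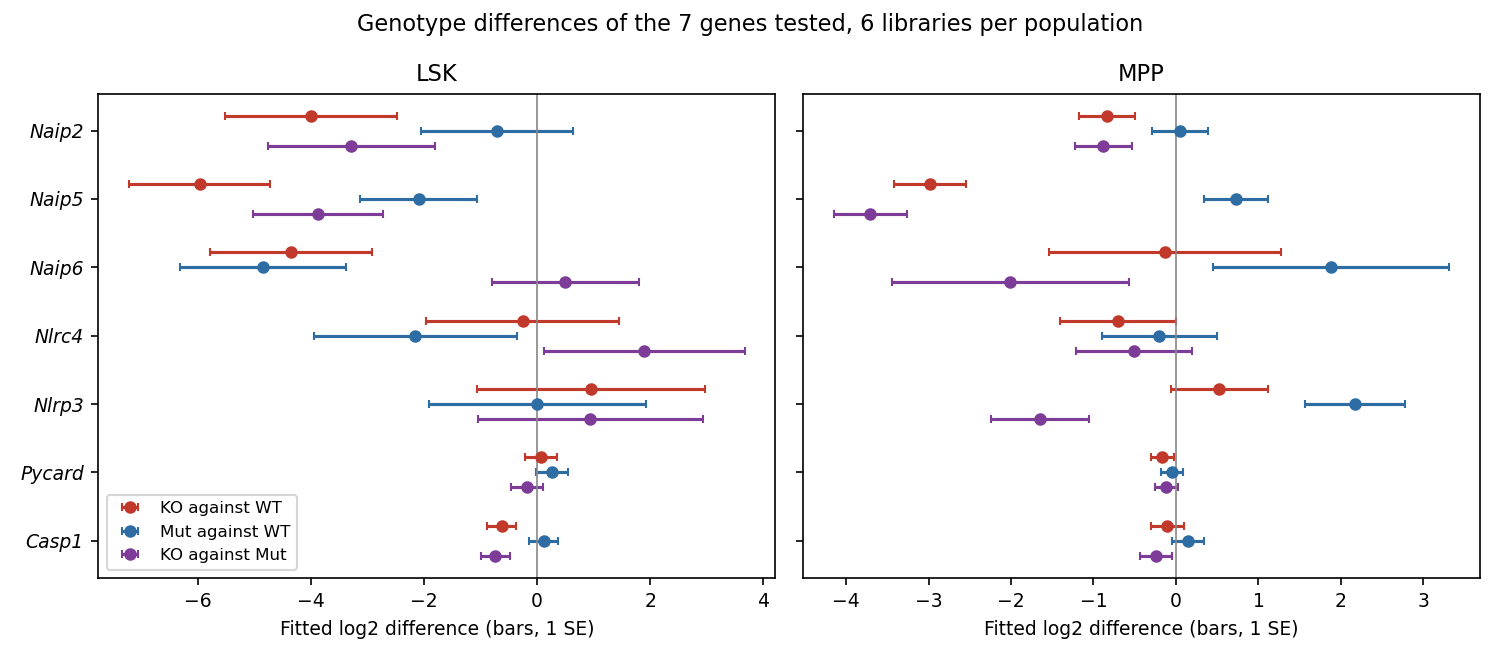
Fitted log2 differences (x axis, bars 1 SE) of the 7 genes tested, for KO against WT, Mut against WT and KO against Mut in LSK (left) and MPP (right, another x scale). Naip5 is at -5.96 in LSK and -2.98 in MPP for KO against WT, and Pycard and Casp1 lie within 0.74 of 0.

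Without overlap between the libraries, 4 of the 7 members tested were lower in LSK KO than in WT, where 18% of all genes were so placed. They were Naip2, Naip5, Naip6 and Casp1, and 1 member, Nlrp3, was higher (25% of genes). For Naip2 the gap was 8 counts (0.844 CPM) in LSK WT replicate 1 against 9 and 6 (0.497 and 0.431 CPM) in KO. For Nlrp3 it was 9 counts (0.950 CPM) in LSK WT replicate 1 against 18 and 14 (0.994 and 1.01 CPM) in KO. The places of Naip2 and Nlrp3 are thus not settled at this depth. For LSK KO against Mut 3 were lower (21.5% of genes) and 2 higher (21.7%), and for LSK Mut against WT 2 were lower (20.3%) and 1 higher (26.8%). In MPP, the comparison that chose the set, 4 were lower in KO than in WT (20.1%) and 5 lower in KO than in Mut (19.9%). The median difference of the 7 was -0.63 in LSK KO against WT and -0.71 in LSK Mut against WT, beside 0.00 and 0.01 over all genes tested. Monocyte and macrophage markers in LSK summed to 225 to 332 CPM in WT, with Adgre1, Cd14, Cx3cr1, Mrc1, C1qa, Fcgr1 and Ms4a7 at 0, 350 to 401 CPM in KO, and 497 to 527 CPM in Mut. The part of the marker sum in the Naip values was not tested.

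Between the populations in WT, Pycard was lower in LSK than in MPP relative to the median gene, though not with spike-in scaling, and was the 1 member called. The difference was -0.73 (SE 0.232, edgeR Benjamini-Hochberg adjusted p = 0.0427), where 24% of genes were called. It was -0.43 without LSK WT replicate 2 (edgeR adjusted p = 0.164), and its edgeR adjusted p lay between 0.0502 and 0.148 without any single Mut, MPP WT or MPP KO library. Naip5 was higher in LSK WT by 2.61 (SE 0.925, edgeR Benjamini-Hochberg adjusted p = 0.0639) and was called by DESeq2 at an adjusted p of 0.00867. Over its alternatives the adjusted p ran from 1.67e-05 with spike-in scaling to 0.222 without MPP WT replicate 2. Naip6 was higher by 3.14 (SE 1.46, edgeR adjusted p = 0.143), and Naip2 lower by a log2 difference of -1.74 (SE 0.922, edgeR adjusted p = 0.195). Naip2 differed by -4.86 without LSK WT replicate 2 and by -0.84 without LSK WT replicate 1, so its size rested on a single library.

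Nlrp3 differed by -3.31 (SE 1.22, edgeR Benjamini-Hochberg adjusted p = 0.0712). The difference was -5.85 without LSK WT replicate 1 and -2.40 without LSK WT replicate 2. Without overlap, 3 members were lower in LSK (30.7% of genes) and 3 higher (26.1%). These directions hold relative to the median gene. Scaled by the ERCC spike-ins, the median over all genes moved by 4.17 towards LSK, and Naip2, Nlrc4, Nlrp3 and Pycard then stood higher in LSK, at 2.54, 3.76, 0.75 and 3.44. All 4 values lie below that shifted median. Spike-ins made up 0.0822% to 0.229% of counts in LSK libraries and 3.16% to 5.15% in MPP libraries. Whether RNA per cell or the amount of spike-in added differed between the populations was not tested.

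The Naip sum was 1.40 higher in LSK WT than in MPP WT (SE 0.441, edgeR Benjamini-Hochberg adjusted p = 0.0406), and 1.27 higher without LSK WT replicate 2 (edgeR adjusted p = 0.0699). The 2 populations also differed in cell markers. Granulocyte-monocyte progenitor markers summed to 2652 to 6963 CPM in LSK and 49014 to 64004 in MPP, and stem cell markers to 571 to 929 in LSK and 77.4 to 131 in MPP. Their part in the result was not tested.

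The effect of Mut in LSK minus its effect in MPP was -6.70 for Naip6 (SE 2.08, edgeR Benjamini-Hochberg adjusted p = 0.130), -2.81 for Naip5 (SE 1.26, adjusted p = 0.285) and -2.45 for the Naip sum (SE 0.621, adjusted p = 0.0667). No member was called, where 2.53% of genes were, and 2 had an unadjusted p under 0.05 (17% of genes). DESeq2 called 1 member, Naip6, at an adjusted p of 0.00677, among 1246 genes in all. Naip5 was called by edgeR without LSK KO replicate 1 (adjusted p = 0.0319) and without LSK KO replicate 2 (adjusted p = 0.0321). The effect of KO in LSK minus that in MPP, which holds the choosing comparison, was -2.97 for Naip5 (SE 1.32), -3.13 for Naip2 (SE 1.34), -4.20 for Naip6 (SE 2.00) and -0.51 for Casp1 (SE 0.298). No member was called there, where 0.727% of genes were.

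The rest of the pathway held no called gene in any of the 6 genotype comparisons, where 0.0456% to 1.28% of all genes were called. Tested were 5 or 6 of 8 other inflammasome sensors, 7 of 13 other NLR genes, 21 of 23 regulators and 11 to 13 of 16 pyroptosis and cytokine effectors. At an unadjusted p under 0.05 by edgeR, LSK KO against WT held 2 sensors, 1 NLR gene, 2 regulators and 0 effectors (13.8% of all genes), and MPP Mut against WT held 2, 0, 3 and 0 (9.75% of all genes). Counts with other tools were not made for these lists. Gsdmd, the gasdermin D pore former, lay at 127 to 179 CPM in LSK and 113 to 154 CPM in MPP. Il1b, the interleukin-1 beta gene, had at most 0.270 CPM in LSK and 4.53 CPM in MPP.

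Between LSK and MPP in WT, each of those 4 lists held called genes, with directions again relative to the median gene. Of all genes tested, 10.2% were called higher and 13.7% lower in LSK, and nothing particular to the lists is read from their counts. Of 6 other sensors tested, 2 were higher and 2 lower in LSK. Aim2, a receptor of cytosolic DNA, was higher by 1.10 (SE 0.327, edgeR Benjamini-Hochberg adjusted p = 0.0317). Casp4, the caspase that binds lipopolysaccharide, was higher by 1.96 (SE 0.653, edgeR adjusted p = 0.0497). Mefv, the pyrin sensor, had 737 counts in MPP WT against 0 in LSK WT, and was at least 216-fold lower in LSK, the floor being 3 counts for the LSK WT pair. Nlrp12 had 0 and 157 counts and was at least 46.1-fold lower, with MPP WT libraries at 1.10 and 9.73 CPM. The bounds for Mefv and Nlrp12 cover counting error only, and reads of amplified RNA are not independent molecules. Without LSK WT replicate 1 the calls of Casp4 and Nlrp12 were lost (edgeR adjusted p = 0.173 and 0.0620), and without LSK WT replicate 2 those of Aim2 and Nlrp12 (edgeR adjusted p = 0.0764 and 0.0692). Nlrc5, the activator of MHC class I genes, was higher in LSK by 1.46 (SE 0.332, edgeR adjusted p = 0.00860), the 1 of 7 other NLR genes called.

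Of 22 regulators tested, 3 were higher and 4 lower in LSK WT. Irf8, a transcription factor of monocyte fate that is known to drive Naip genes, was lower, with a difference of -2.96 (SE 0.187, edgeR Benjamini-Hochberg adjusted p = 1.73e-06). Its levels were 55.0 to 88.8 CPM in LSK WT and 557 to 566 CPM in MPP WT. Nek7, the partner Nlrp3 needs, differed by -1.57 (SE 0.305), Myd88, the Toll-like receptor adaptor, by -1.20 (SE 0.259) and Mapk8, the JNK1 kinase, by 2.80 (SE 0.612). Without LSK WT replicate 1 the list held 4 higher and 6 lower genes, and without LSK WT replicate 2 it held 2 and 6.

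Of 13 effectors tested, 3 were higher and 1 lower in LSK WT. Il18, the interleukin-18 gene, was higher by 3.19 (SE 0.534, edgeR Benjamini-Hochberg adjusted p = 0.00147), at 14.4 to 27.0 CPM against 2.10 to 2.40. Sigirr, a brake on interleukin-1 family receptors, was higher by 1.08 (SE 0.173) and Ninj1, which ruptures the membrane of dying cells, by 0.71 (SE 0.236). Il18r1, a chain of the interleukin-18 receptor, had 200 counts in MPP WT against 1 in LSK WT, a ratio of 176 with an exact 95% interval of 31.2 to 6990 that covers counting error only, reads of amplified RNA not being independent molecules. Its call was lost without either LSK WT library (edgeR adjusted p = 0.0964 and 0.0632), and that of Ninj1 without LSK WT replicate 1 (edgeR adjusted p = 0.344). The effectors called were 2 higher and 0 lower with LSK WT replicate 1 left out. With the other LSK WT library left out they were 4 higher and 3 lower. Of the 14 locus neighbours tested, 1 was higher and 6 were lower, among them Taf9 (-1.17), Ccnb1 (-1.40), Cdk7 (-1.52) and Smn1 (-1.13).

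**Figure D5:**
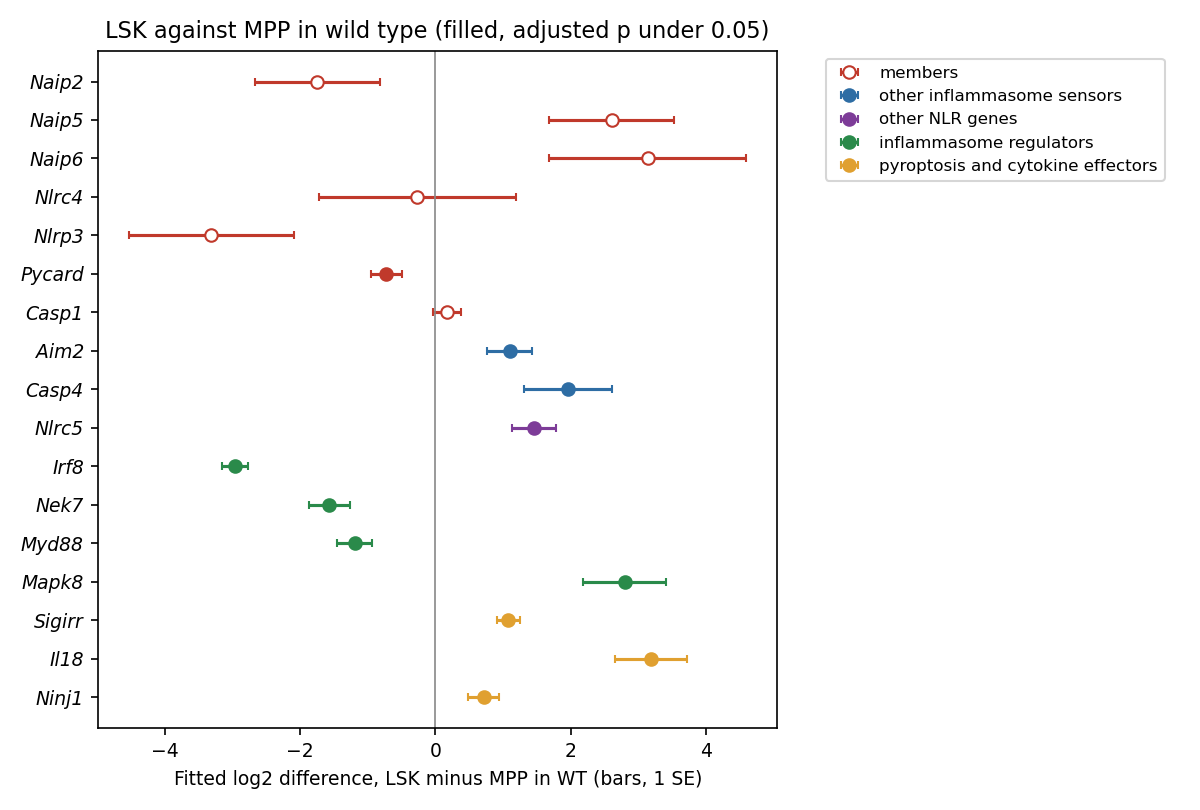
Fitted log2 difference LSK minus MPP in WT (x axis, bars 1 SE) for the 7 genes tested and up to 4 called genes of each pathway list; filled points have an adjusted p under 0.05. Values are relative to the median gene, and Pycard turns to 3.44 with spike-in scaling. Pycard is the filled member at -0.73, Irf8 lies at -2.96 and Il18 at 3.19, and genes with 3 or fewer counts in LSK WT are left out.

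The genes whose log2 CPM over the 12 libraries was most like that of Naip5, out of 14032 others, were Bud13 (Pearson r = 0.913), Gata2 (0.903), Casp1 (0.870), Spred2 (0.859) and Dusp7 (0.847). These are descriptions over 12 libraries that share pools, depth and groups, and they include the MPP KO values that chose Naip5. In LSK KO replicate 2 Naip5 had 0 counts, which the prior count set to -2.90 log2 CPM. Bud13, Gata2, Casp1 and Dusp7 were lowest in that library too, and Spred2 was not. Gata2, a stem cell transcription factor, lay at 380 and 407 CPM in LSK WT, 277 and 200 in LSK KO, and 284 and 324 in LSK Mut. Bud13, a splicing factor, lay at 49.9 and 34.1, 25.9 and 10.5, and 42.4 and 39.9 CPM in the same groups. Among the other members, r with Naip5 was 0.483 for Naip6, 0.368 for Naip2, 0.093 for Pycard, -0.128 for Nlrp3 and -0.267 for Nlrc4.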

How the data were processed

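RNA was sequenced from 12 libraries, 2 technical replicates for each of LSK and MPP cells of WT, KO and Mut mice. The authors deposited raw counts per gene symbol, in a table for each population of 24630 symbols, 92 of them spike-ins, with no scaling. Per the submitters' processing notes, Trim Galore 0.4.1, TopHat2 2.0.13, HTSeq 0.6.1 and Cufflinks were used on mm10. The strand setting, the annotation and the handling of multi-mapped reads are not given in the sources used here. The heading of an MPP column matches no library title. It was taken as MPP KO replicate 2, since no other library title has its ending, Lin-KO-2. The number before that ending repeats that of MPP KO replicate 1.

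Counts were compared with edgeR 4.0.16 (R 4.3.3), with TMM scaling, filterByExpr by group (minimum count 10, total 15) and quasi-likelihood fits of a mean per group. The 6 libraries of a population shared the spread (3 residual degrees of freedom). All 12 entered the comparisons across populations (6 residual degrees of freedom). Tests were two-sided, with Benjamini-Hochberg adjustment over all genes tested, and an adjusted p under 0.05 was called. The scripts were tested on simulated data. CPM use TMM-scaled library sizes over the 12 libraries and are given as mean ± SD. Depth ran from 9181027 to 23532847 gene counts. No pair of replicate libraries differed by as little as sampling noise.

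Named are the 8 genes, up to 4 called genes per pathway list and comparison by smallest p, and the 5 genes most like Naip5. The members and lists were chosen with earlier results of these data known. Alternatives were RLE and spike-in scaling, no filter, DESeq2 1.42.0, a replicate block, the spread of the 2 groups compared, and each library left out. The sum of the Naip genes, and the lists without each LSK WT library, were added after seeing the data. Genes outside these lists were not analysed here beyond the fits.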

Additional observations from a re-analysis of the deposited data

Results flagged for a closer look

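Among the pathway and locus lists, leaving out the cell type markers, 3 differences of a genotype effect between LSK and MPP were called by edgeR with Benjamini-Hochberg adjustment. Irf8 had a KO effect 1.63 higher in LSK than in MPP (SE 0.247, adjusted p = 0.0278) and a Mut effect 1.51 higher (SE 0.247, adjusted p = 0.0132). Its LSK libraries lay at 55.0 to 88.8 CPM in WT, 175 to 177 in KO and 174 to 178 in Mut, and its MPP libraries at 557 to 566, 441 to 444 and 476 to 486 CPM. Both effects share the LSK WT pair, the pair with the widest spread between its libraries. Without LSK WT replicate 1 the KO and Mut differences of Irf8 were 1.33 and 1.22, and without LSK WT replicate 2 they were 2.02 and 1.91, all 4 called by edgeR. Taf9, a neighbour of the Naip cluster, had a Mut effect 0.89 higher in LSK (SE 0.194, adjusted p = 0.0377), with 103 to 111 CPM in LSK WT and 165 to 171 in LSK Mut, against 237 to 242 in MPP WT and 188 to 219 in MPP Mut. Without LSK WT replicate 1 or 2 it was 0.95 or 0.83, called by edgeR in both.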

How the results depend on the processing

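With 2 technical libraries a group, the number of genes called depended on the tool, the filter, the scaling and the libraries kept. The main numbers of genes called were 6, 168 and 8 in LSK (KO against WT, Mut against WT, KO against Mut), 47, 29 and 31 in MPP (KO against WT, Mut against WT, KO against Mut), 3361 for LSK against MPP in WT, and 102 and 355 for the differences of the KO and Mut effects. In the same order DESeq2 called 692, 1526, 116, 276, 313, 302, 4775, 657 and 1246, and edgeR with no filter called 50, 475, 22, 189, 217, 195, 3811, 278 and 662. Spike-in scaling gave 71, 3002, 8, 15, 2297, 3254, 11550, 2 and 5428, and moved the all-gene median by 0.51, 1.09, -0.59, 0.06, -0.59, 0.65, 4.17, 0.43 and 1.66. The spread of the 2 groups compared gave 3, 5, 36, 26 and 17 for LSK KO against WT, LSK Mut against WT, LSK KO against Mut, MPP KO against WT and MPP Mut against WT. Leaving out a library gave 0 to 1690, 5 to 2631, 2 to 65, 10 to 41, 15 to 28, 10 to 34, 2018 to 4198, 4 to 903 and 88 to 1425.

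Replicate numbers did not pair the libraries (correlations of deviations -0.025 to 0.018). With the replicate block the numbers called were 35 in LSK Mut against WT, 5 in LSK KO against Mut, 23 in MPP KO against WT, 19 in MPP Mut against WT and 34 for the KO effect, and no member was called in MPP KO against WT or LSK against MPP (0 and 0). Nlrc4 turned to 0.10 in MPP Mut against WT and 0.17 in LSK against MPP with the block.

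Members called were 0, 0, 0, 1, 0, 1, 1, 0 and 0 in the first order. Spike-in scaling gave 1, 1, 1, 0, 1, 1, 5, 0 and 2. DESeq2 gave 2 in LSK KO against WT, 1 in LSK Mut against WT, 1 in MPP Mut against WT, 4 in LSK against MPP and 1 for the Mut effect. No filter gave 1 in LSK KO against WT and 3 in LSK against MPP, and the spread of the 2 groups compared gave 0 in MPP KO against WT and 0 in MPP KO against Mut. Leaving out a library gave 0 to 2, 0 to 1, 0 to 0, 0 to 0, 0 to 0, 0 to 1, 0 to 3, 0 to 1 and 0 to 1.

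Signs turned as follows, first for the comparisons that were tested. Nlrp3 in LSK Mut against WT was -0.0145 with RLE scaling and -0.0195 by DESeq2. Spike-in scaling gave Nlrc4 0.38 in LSK KO against WT, Naip2 0.42 in LSK Mut against WT, Naip2 -0.54 and Casp1 -0.44 in MPP Mut against WT, Naip2 2.54, Nlrc4 3.76, Nlrp3 0.75 and Pycard 3.44 in LSK against MPP, and Naip2 0.96, Nlrc4 0.16 and Casp1 1.67 for the Mut effect. Leaving out a library gave, in LSK KO against WT, Nlrc4 -1.25 to 5.97 and Pycard -0.21 to 0.43. In LSK Mut against WT it gave Naip2 -1.62 to 2.43, Nlrc4 -4.63 to 4.07, Nlrp3 -2.11 to 2.56 and Pycard -0.02 to 0.62, and in LSK KO against Mut Naip6 -0.38 to 3.06 and Pycard -0.45 to 0.0345. In MPP Mut against WT it gave Naip2 -0.0186 to 0.13, Nlrc4 -0.78 to 0.79 and Pycard -0.13 to 0.0392, and in LSK against MPP Nlrc4 -6.50 to 0.73. For the Mut effect it gave Naip2 -1.64 to 2.39, Nlrc4 -4.41 to 4.30, Nlrp3 -4.24 to 0.42 and Casp1 -0.0828 to 0.0634. Among the values given as a description, leaving out a library gave Naip6 -1.33 to 2.40, Nlrc4 -1.92 to 0.29 and Nlrp3 -0.19 to 1.28 in MPP KO against WT, Nlrc4 -1.72 to 0.15 in MPP KO against Mut, and Nlrc4 -0.53 to 6.69, Nlrp3 down to -0.45 and Pycard -0.0375 to 0.62 for the KO effect. Spike-in scaling gave Nlrc4 0.18, Pycard 0.54 and Casp1 0.40 in MPP KO against Mut, and the replicate block gave Naip6 0.13 in MPP KO against WT. The cause was not tested. A lone library was assumed to vary like the other groups. Naip5 kept its direction in each genotype comparison under every alternative run. Low counts limit Naip1, Naip6 and, in LSK, Nlrp3.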
